A study of Mus musculus with 18 samples.

Results

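Untransfected cells in high glucose were compared with untransfected cells given vehicle. Both groups are cultures labelled HL-1, an immortalised mouse line derived from atrial heart muscle, and each was sequenced as 3 libraries. The comparison therefore uses 6 of the 18 libraries of the series, chosen by their labels alone. The other 12 came from cells that were transfected in high glucose with a mimic or an inhibitor of the microRNA miR-200a-3p, or with the negative control of either, and no transfected library entered the comparison. The medium of all cells was DMEM, a standard culture medium, supplemented with serum (10%, fetal bovine) and the antibiotics penicillin and streptomycin. Both groups carry the genotype "control" in the labels, and harvest is stated for transfected cells only. No glucose concentration, exposure time, vehicle composition or osmotic control is given for these cells in the sources used here. Whether replicates 1 to 3 were grown as independent cultures is not stated either, and a p-value below therefore reflects the scatter of 3 libraries a side, which may be technical. The measurements are bulk RNA levels, in which fewer cells of a type and less RNA per cell cannot be told apart.

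Levels are given as CPM, a gene's share of the reads of its library after scaling between libraries, and where values stand in a row they follow the order of replicates 1, 2 and 3. A gene was called when its Benjamini-Hochberg adjusted p in edgeR's quasi-likelihood test was under 0.05. Fold changes are on the log2 scale, high glucose over vehicle, with their standard error (SE).

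The marker genes only partly matched the label. Of 21 cardiomyocyte markers, 8 had enough reads to be tested. Nppa, which encodes atrial natriuretic peptide and is a defining product of atrial muscle, had 0 reads in vehicle and 1 read in high glucose over 3 libraries each. The adult heart myosin genes Myh6 and Myh7 had 10 and 18 reads in vehicle and 14 and 26 reads in high glucose. Cardiac troponin T (Tnnt2) was present at 42.1 unscaled CPM in vehicle and 45.4 in high glucose, and the cardiac transcription factor Gata4 at 10.8 and 9.22 unscaled CPM. Much higher were desmin (Des), the intermediate filament of all striated muscle, at 4823 and 5582 unscaled CPM, and the fibrillar collagen gene Col3a1, an abundant product of fibroblasts, at 8954 and 9395 unscaled CPM. The groups are therefore called by their labels below, and nothing is read from the name of the line.

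Glucose enters a cell through facilitative transporters and is phosphorylated and broken down by glycolysis, and the glucose-sensing factors MondoA and ChREBP raise genes such as Txnip when sugar phosphates accumulate. In heart muscle, prolonged high glucose is studied as a model of diabetic cardiomyopathy, in which growth, matrix, inflammatory and stress genes are commonly measured. Epithelial cells, by contrast, are known by keratin filaments, by desmosomes and tight junctions, and by laminin-anchored hemidesmosomes.

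Library totals ran from 34242930 to 36125927 reads, so 3 reads, the most that a count of 0 allows, corresponded to 0.083 to 0.0876 CPM. This floor covers counting error only. Of 24410 genes with a read in the 6 libraries, 13745 passed the filter on low counts and were tested. The first principal component, with 67.3% of the variance, separated the groups. The second, with 18.2%, placed vehicle replicate 2 and high glucose replicate 3 at the same end.

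High glucose changed many genes by small amounts. Of the 13745 genes tested, 2964 were called (21.6%), 1455 higher (10.6%) and 1509 lower (11%). Of all genes tested 36.8% did not overlap between the groups, meaning that every library of one group lay above every library of the other, as was so for 2888 of the 2964 called genes. The median size of a called change was 0.37 on the log2 scale, and 68.2% of the called changes were under 0.5. Changes of at least 2-fold were fewer and mostly downward, with 42 genes higher (0.306%) and 152 lower (1.11%). Genes with large folds were mostly scarce, since the median vehicle level was 0.689 CPM in the 42 and 1.44 CPM in the 152, against 18.3 CPM over all genes tested. Without vehicle replicate 1 the count of called genes dropped to 1970, with 961 higher, and 65.2% of the original calls were kept with no change of direction.

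Calls followed base composition. Tested genes were divided into 5 equal classes by GC content of the transcript. In the class with the lowest GC content 16.6% were called higher and 4.66% lower, and in that with the highest 5.54% were higher and 15.6% lower. Libraries of both groups contributed to this spread. Genes of the lowest class deviated from the mean of the 6 libraries by -0.07, 0.05 and -0.14 (median, log2) in vehicle and by -0.01, 0.01 and 0.17 in high glucose. After correction for GC content and length 3928 genes were called, 2124 higher and 1804 lower, and 94.3% of the original calls were kept. The part of GC content in single results was not tested beyond that correction.

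**Figure D1:**
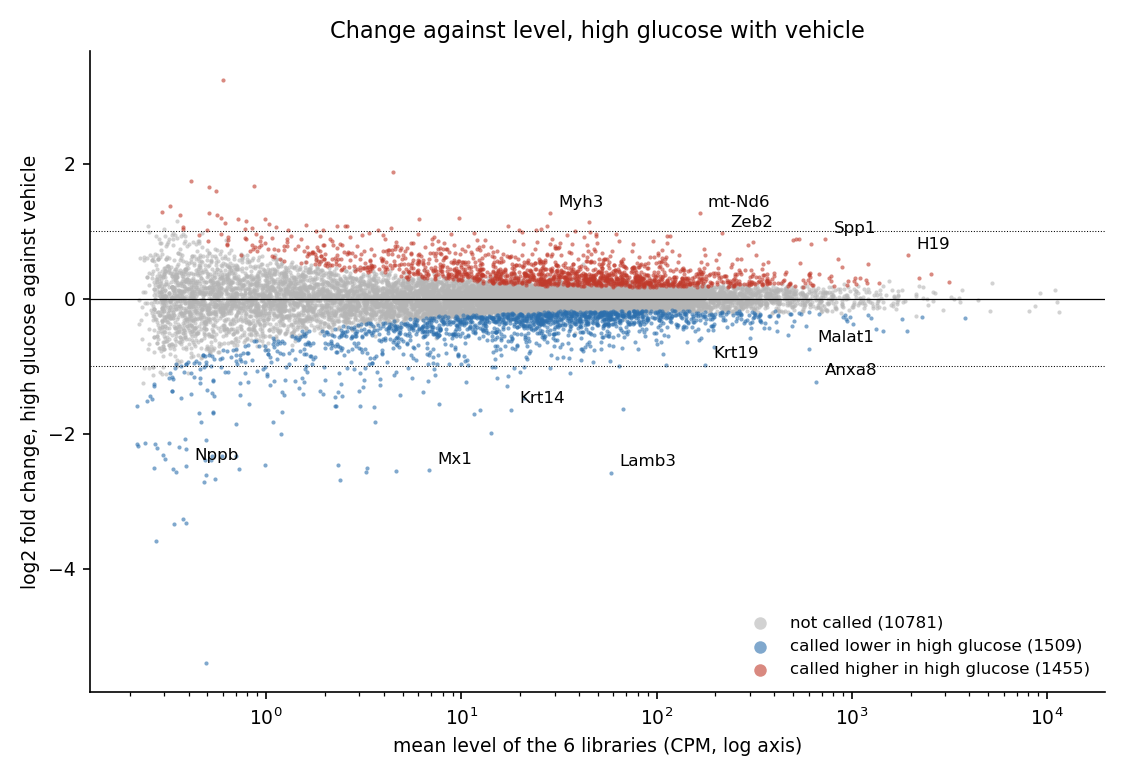
Log2 fold change of high glucose against vehicle (vertical axis) against the mean CPM of the 6 libraries (horizontal log axis) for the 13745 genes tested. Red points are the 1455 genes called higher, blue points the 1509 called lower, grey points those not called, and dotted lines mark 2-fold. Most coloured points lie inside the dotted lines, and the labelled Lamb3 and Mx1 lie far below them.

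The largest fall among the named genes above 5 CPM was that of Lamb3. It encodes the beta chain of laminin-332, the laminin that anchors epithelial cells to their basement membrane (chromosome 1, 192890007 to 193027705, + strand, GRCm39). It lay at 100.3, 97.4 and 102 CPM in vehicle and at 15.8, 17.2 and 17.3 CPM in high glucose, so every high glucose library was far below every vehicle library. The change was -2.58 ± 0.0672 (log2 fold change ± SE, adjusted p = 1.37e-12). Lama3, the alpha chain, fell from 5.03 ± 0.444 to 2.35 ± 0.249 CPM (SD, n = 3, log2 fold change -1.09). Of 10 tested genes of basal laminin and the hemidesmosome 5 were lower (50%, against 11% of all genes). Among them was Col17a1, the transmembrane collagen of the hemidesmosome (-0.59). Itgb4, the integrin beta 4 chain, was the 1 gene called higher (10%, against 10.6% of all genes). It rose by 0.25 with an adjusted p of 0.0494. Leaving out vehicle replicate 1 or 2, or high glucose replicate 1 or 2, raised that p to between 0.0715 and 0.194. The median of the 10 was -0.21, against 0.00 over all genes tested. Krt14 is a member of this list and of the keratin list below, so the counts of the 2 lists are not separate observations.

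Keratins form the intermediate filaments of epithelia. Of 16 keratin genes listed, 7 were tested and 4 were lower (57.1%, against 11% of all genes), with a median of -0.98. Krt19 was the most abundant and measured 235, 218 and 251 CPM in vehicle against 127, 122 and 108 CPM in high glucose (log2 fold change -0.98 ± 0.0736, adjusted p = 2.86e-07). Krt80 gave 150.3, 141 and 152 CPM against 76.5, 79.4 and 69.1 CPM. The basal keratin Krt14 dropped further, from 28.1, 26.3 and 27.2 CPM to 8.77, 8.86 and 8.51 CPM (-1.64 ± 0.0747, adjusted p = 1.25e-09), and its stress-inducible relative Krt16 by -1.70. The groups did not overlap for any of these 4, as for 36.8% of all genes tested. Krt13 was not called: it lay at 85.5, 81.0 and 92.3 CPM in vehicle and at 92.8, 85.2 and 77.3 CPM in high glucose (log2 fold change -0.02, adjusted p = 0.888). Krt5, the usual partner of Krt14, had 0 reads in all 6 libraries.

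Some genes of the cornified envelope and of cell junctions fell as well. Sprr1a, a small proline-rich envelope protein that is also induced in stressed heart and nerve, fell from 5.60, 4.77 and 6.31 CPM to 0.994, 0.982 and 0.952 CPM (log2 fold change -2.50 ± 0.155, adjusted p = 5.09e-08). Of 26 envelope and stratified epithelial genes 8 were tested and 4 were lower (50%, against 11% of all genes). They included the desmosomal plaque protein Ppl (-0.87). Without vehicle replicate 1 or without high glucose replicate 1 only 2 of these calls held, since Grhl1, an epithelial transcription factor, and Evpl, the envelope protein envoplakin, then had adjusted p values of 0.0506 to 0.0854. Of 28 junction genes listed, 12 were tested and 9 of these were lower (75%), none was higher, and the median was -0.57. F11r, a tight junction adhesion molecule, measured 61.5, 59.8 and 65.6 CPM in vehicle and 34.8, 33.2 and 29.9 CPM in high glucose (-0.93 ± 0.0710, adjusted p = 3.01e-07). The adhesion molecule Ceacam1 (-1.60), the tight junction claudin Cldn1 (-1.83), the desmosomal plakophilin Pkp3 (-1.45) and the coxsackievirus and adenovirus receptor Cxadr (-1.43) fell further, from vehicle means of 0.729 to 5.39 CPM.

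Outside these lists, the 20 largest falls included several other genes. Anxa8, a membrane-binding annexin, was the most abundant of the 20 largest falls and went from 978, 924 and 861 CPM to 391, 392 and 397 CPM (log2 fold change -1.23 ± 0.0668, adjusted p = 9.78e-09). Dhrs9, a retinol dehydrogenase, fell from 102 ± 2.32 to 33.0 ± 2.06 CPM, and Tinagl1, a secreted matrix protein, from 7.92 ± 0.508 to 1.34 ± 0.249 CPM. Isx, an intestinal homeobox factor, fell from 5.58 ± 0.672 to 0.935 ± 0.273 CPM. Ezr encodes ezrin, which ties actin to the membrane of microvilli, and it lost 1.39-fold from a high level, from 2229 ± 51.8 to 1600.0 ± 81.8 CPM. The epithelial transcripts were not a full epithelial set. The summed level of 12 general epithelial markers was 253 to 279 unscaled CPM in vehicle and 120 to 137 in high glucose, most of it Krt19, while Epcam had 0 and 1 reads and E-cadherin (Cdh1) 8 and 5 reads in the 2 groups. The part of any epithelial cells in these falls was not tested. Among mesenchymal regulators, the repressor of epithelial genes Zeb2 rose from 147, 156 and 132 CPM to 256, 283 and 315 CPM (0.97 ± 0.0809, adjusted p = 7.17e-07). Of 12 tested mesenchymal factors and cadherins only Zeb2 and the mesenchymal homeobox gene Prrx1 (0.39) rose, and Twist2 (-0.40) and N-cadherin Cdh2 (-0.32) fell. These are 16.7% each way, against 10.6% and 11% of all genes.

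**Figure D2:**
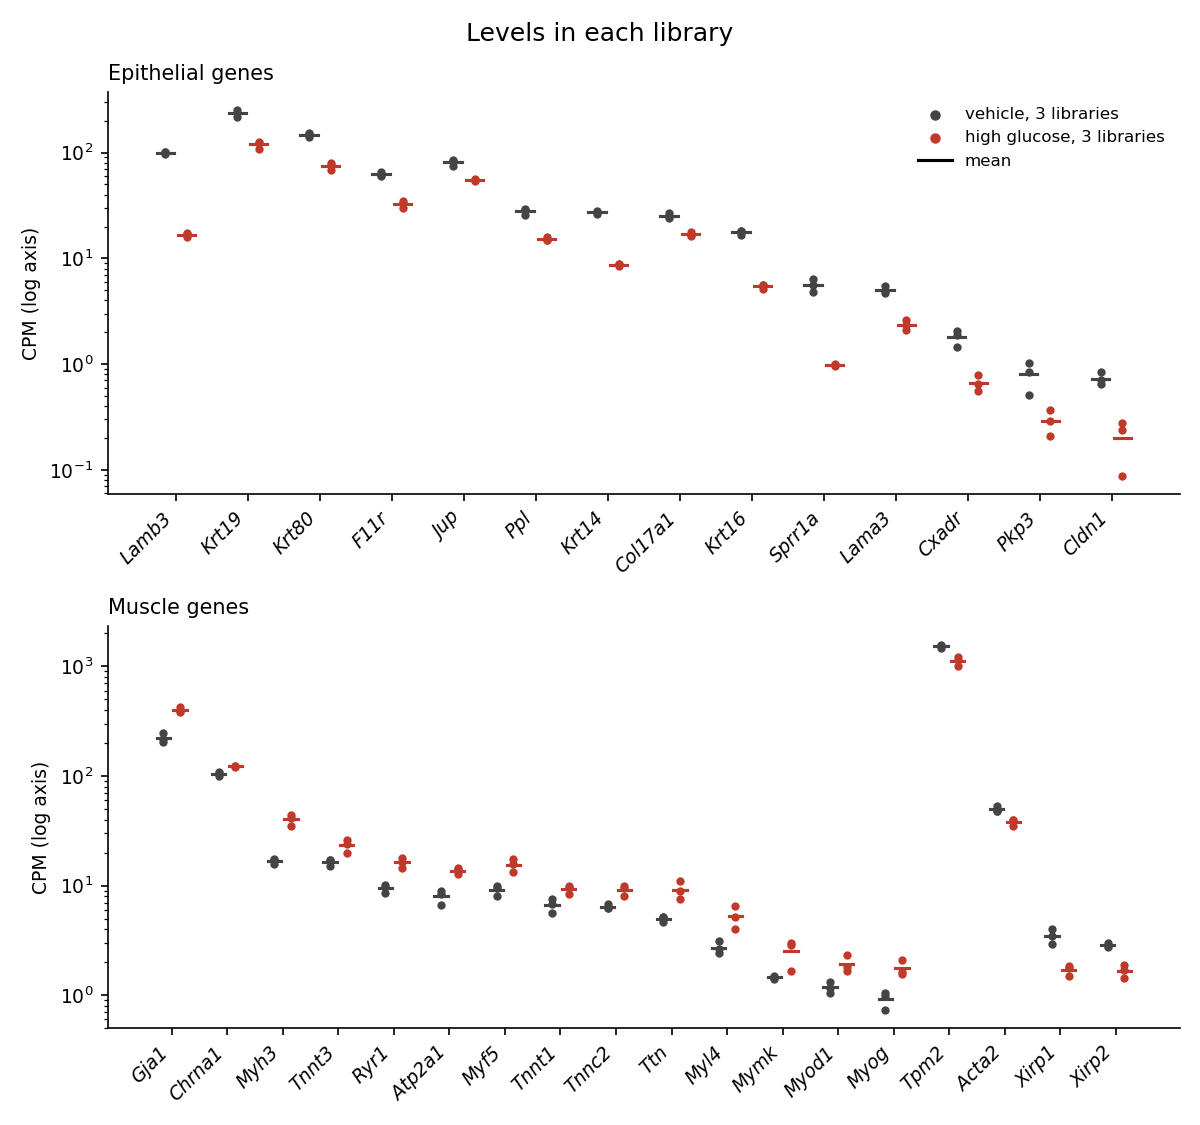
CPM of 14 epithelial genes (upper panel) and 18 muscle genes (lower panel) in each library, on log axes. Only called genes are shown, and all 14 epithelial genes were called lower. List members that were not called, such as Krt13, and Itgb4, which was called higher, are left out. Dark grey points are the 3 vehicle libraries, red points the 3 high glucose libraries, and bars are group means. The red points of Lamb3 lie between 15.8 and 17.3 CPM, all below the grey points, and those of Myh3 between 35.1 and 44.3 CPM, all above.

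Genes that act in mitosis rose almost as a body. Of 40 listed, all tested, 35 were called higher (87.5%, against 10.6% of all genes) and none lower, and the median was 0.64. With any 1 library left out, or under the other settings tried, the count was 31 to 37 and the median 0.34 to 0.65. Mki67, the common marker of cycling cells, measured 26.5, 23.2 and 19.7 CPM in vehicle and 35.9, 41.5 and 46.0 CPM in high glucose (log2 fold change 0.83 ± 0.102, adjusted p = 3.25e-05). Top2a, the topoisomerase that untangles chromosomes, went from 59.6, 57.2 and 54.2 CPM to 87.5, 95.8 and 95.7 CPM (0.71 ± 0.0648, adjusted p = 1.97e-06). The groups did not overlap for either gene. Prr11, a gene of late cell cycle, had the largest change of the list, from 3.73, 3.80 and 3.62 CPM to 7.95, 9.31 and 7.95 CPM (1.17 ± 0.106). It was followed by the condensin subunit Ncapg (1.08), the spindle protein Hmmr (0.97) and the microtubule-binding Nusap1 (0.95). The 5 members that were not called, namely Ccnb2, Ttk, Ect2, Racgap1 and Ube2c, had log2 fold changes of 0.14 to 0.50 and adjusted p values of 0.0645 to 0.165, and they are named for that reason alone. The microtubule-destabilising stathmins Stmn1 (30.7 ± 2.39 to 60.9 ± 4.37 CPM) and Stmn4 (17.7 ± 0.932 to 37.3 ± 1.64 CPM) also rose.

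DNA replication genes form the other part of the cell cycle lists. Of 28 tested, 8 rose (28.6%, against 10.6% of all genes) and 1 fell, with a median of 0.13. The rises numbered 5 when vehicle replicate 1 or high glucose replicate 2 was left out. The origin-licensing factor Cdc6 rose from 1.38 ± 0.0906 to 2.17 ± 0.0950 CPM (log2 fold change 0.66, adjusted p = 0.00629) and the helicase subunit Mcm7 from 13.2 ± 0.314 to 19.6 ± 1.96 CPM (0.56, adjusted p = 0.000185). The single fall, of the thymidine kinase gene Tk1 (-0.38, adjusted p = 0.0449), was lost when any library other than high glucose replicate 2 was left out (adjusted p = 0.0593 to 0.182). The difference between the mitotic and the replication list was not tested.

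The E2F family, which switches cell cycle genes on or off, was split, with 4 of 19 tested members of its list higher and 4 lower. E2f4, a family member known mainly as a repressor in resting cells, doubled with little spread: it lay at 17.0, 16.6 and 16.6 CPM in vehicle and at 34.8, 34.8 and 33.4 CPM in high glucose (log2 fold change 1.04 ± 0.0666, adjusted p = 7.52e-08). Foxm1, an activator of mitotic genes, rose by 0.71 and E2f3 by 0.53. E2f2 fell from 4.71, 4.01 and 4.15 CPM to 1.78, 1.46 and 1.74 CPM (-1.37 ± 0.139, adjusted p = 5.2e-06), and the repressor E2f8 fell by 0.58 on the log2 scale. Without vehicle replicate 1 the falls called were 2, E2f2 and E2f8. Cyclin D1 (Ccnd1), which links growth signals to the cell cycle, fell from 172 ± 10.5 to 129.6 ± 8.37 CPM (-0.41 ± 0.0678, adjusted p = 0.000421). The p53 targets were mixed, with 5 of 19 higher, led by the mitotic p53 regulator Gtse1 (0.66), and 4 lower, among them Btg2 (-0.57) and Pmaip1 (-0.53). These are 26.3% and 21.1%, against 10.6% and 11% of all genes. The rises numbered 3 without vehicle replicate 1 or high glucose replicate 3.

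**Figure D3:**
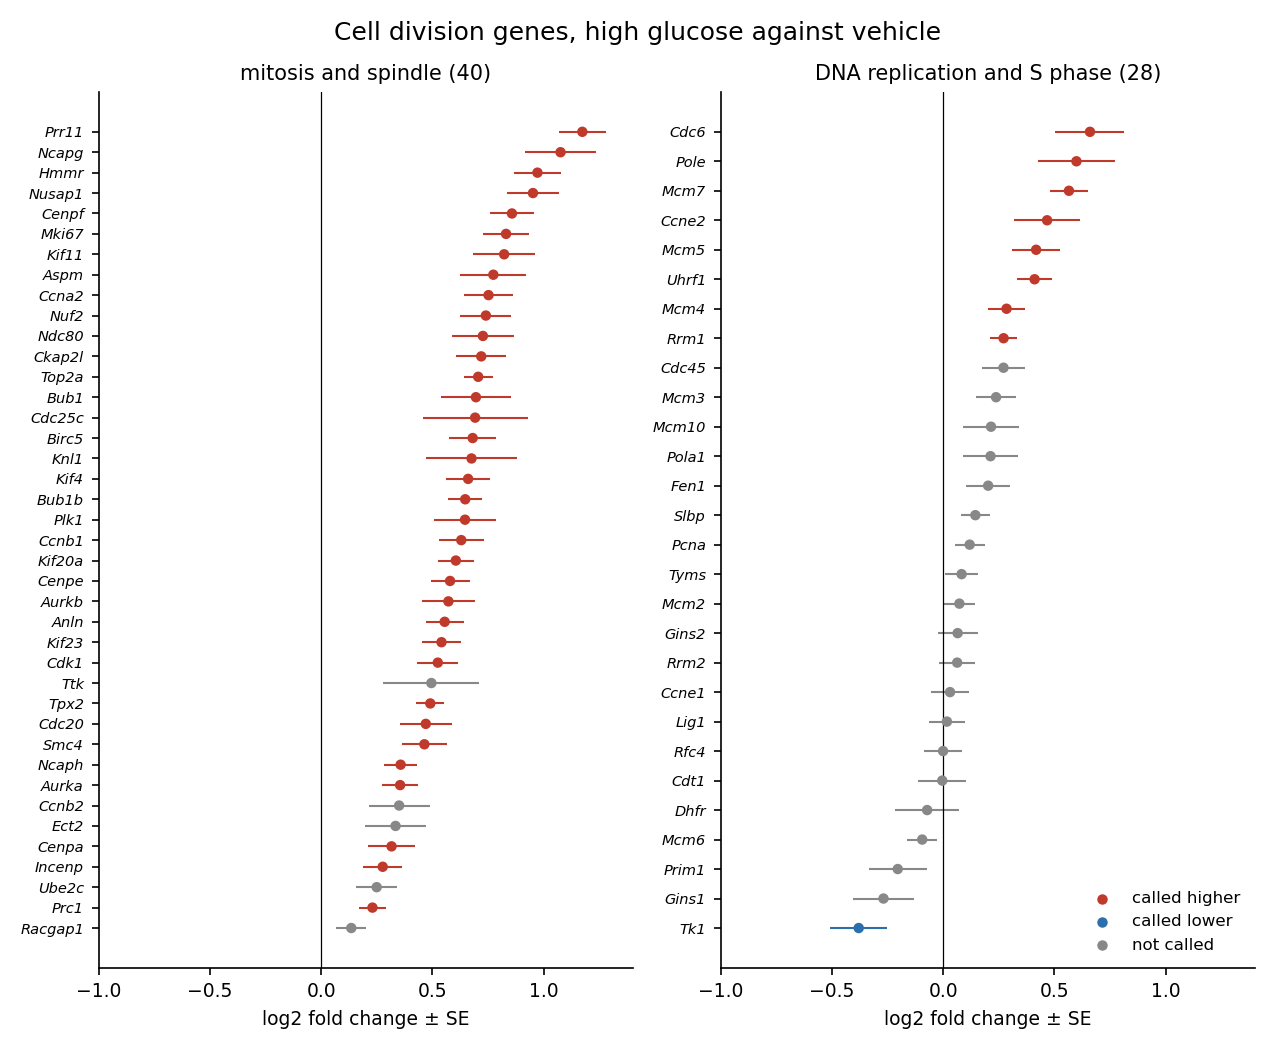
Log2 fold change with its standard error for each of 40 mitosis genes (left) and 28 DNA replication genes (right), red where called higher, blue where called lower and grey where not called. All 40 mitosis genes lie to the right of 0, and 35 of them are red. Among the replication genes 8 are red and 1 is blue.

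Promoters of the 3 mitotic genes with the largest change are shown because known control of such genes runs through CCAAT boxes, bound by NF-Y, and the CHR element, bound by the DREAM and MuvB complexes. They are GRCm39 sequence, 200 bases that end just before the annotated start, with each CCAAT box on either strand in capitals (CCAAT, or ATTGG on the other strand).
Prr11, chr11:86999610-86999809, - strand: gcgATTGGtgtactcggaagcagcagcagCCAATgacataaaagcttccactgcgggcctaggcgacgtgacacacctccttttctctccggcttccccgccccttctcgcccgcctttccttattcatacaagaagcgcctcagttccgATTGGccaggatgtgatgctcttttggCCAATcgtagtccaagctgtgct
Ncapg, chr5:45826950-45827149, + strand: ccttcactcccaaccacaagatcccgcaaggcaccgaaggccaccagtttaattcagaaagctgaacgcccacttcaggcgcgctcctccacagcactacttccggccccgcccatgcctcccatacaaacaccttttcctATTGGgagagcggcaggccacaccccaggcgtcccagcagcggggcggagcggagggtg
Hmmr, chr11:40624281-40624480, - strand: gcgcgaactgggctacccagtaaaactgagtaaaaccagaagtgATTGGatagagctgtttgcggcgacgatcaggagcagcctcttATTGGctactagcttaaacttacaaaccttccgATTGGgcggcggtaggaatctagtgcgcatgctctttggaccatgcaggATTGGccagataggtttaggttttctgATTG
In windows of 300 bases, 250 before the start and 50 after it, Prr11 and Hmmr each held 5 CCAAT boxes and Ncapg held 1, and the last of Hmmr runs past the printed end. The CHR letters were found once in the window of Hmmr and in neither that of Prr11 nor that of Ncapg. CCAAT was found in 29 of 40 mitotic promoters (72.5%), against 39.6% of the 13718 promoters of tested genes. The CHR motif TTTGAA, searched on both strands, was found in 21 of 40 (52.5%), against 14% of all. Of the replication genes 6 of 28 (21.4%) held the E2F motif GGCGGGAA, against 3.5%. A match describes the letters and does not show a bound site.

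Several skeletal muscle genes rose from low levels. Of 10 tested markers of skeletal myoblasts 7 rose (70%, against 10.6% of all genes), none fell, and the median was 0.61. Myh3, the embryonic myosin heavy chain, lay at 17.0, 15.8 and 17.3 CPM in vehicle and at 40.9, 44.3 and 35.1 CPM in high glucose (log2 fold change 1.26 ± 0.0859, adjusted p = 1.14e-07). Factors that commit and drive skeletal muscle differentiation rose as well. Myf5 went from 9.81, 9.49 and 8.07 CPM to 15.8, 13.4 and 17.5 CPM (0.77 ± 0.106, adjusted p = 8.95e-05). Myog, which encodes myogenin, went from 0.975, 1.06 and 0.731 CPM to 2.08, 1.58 and 1.62 CPM (0.92 ± 0.199, adjusted p = 0.00342). Neither gene overlapped between the groups, as held for most called genes. Myod1 rose by 0.71, a call that was lost without high glucose replicate 2 (adjusted p = 0.0759), and Mymk, the fusion protein myomaker, by 0.79, lost without high glucose replicate 1 (adjusted p = 0.0657). Both are under 5 CPM. Of 13 tested heart and skeletal muscle transcription factors 4 rose (30.8%), or 2 without high glucose replicate 2, and none fell. Myod1, Myf5 and Myog are in both lists, so these counts are not separate observations. The summed level of the 12 myoblast markers, which desmin dominates, was 4690 to 5430 unscaled CPM in vehicle and 5060 to 6300 in high glucose. The part of a myoblast-like fraction of the cultures in these rises was not tested.

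Contractile genes went both ways. Of 37 sarcomere and contractile genes 25 were tested, 8 rose (32%) and 6 fell (24%), against 10.6% and 11% of all genes. Myh3 and Tnnc2 are members of this list and of the myoblast markers. The giant spring protein Ttn rose from 4.63, 5.15 and 5.12 CPM to 7.51, 8.95 and 11 CPM (log2 fold change 0.88 ± 0.128, adjusted p = 0.000137), but with limma on FPKM, where its great length gives it values near 0, it was not called (adjusted p = 0.111 or 0.235 by pseudocount). The light chain Myl4 rose by 0.95 and the fast troponins Tnnc2 and Tnnt3 by 0.52 and 0.50. Tropomyosin 2 (Tpm2), an abundant actin-binding protein, fell from 1577, 1471 and 1541 CPM to 1203, 1140.0 and 1003 CPM (-0.46 ± 0.0755, adjusted p = 0.000454). Smooth muscle actin Acta2 fell from 49.5 ± 2.86 to 38.1 ± 3.04 CPM, and the intercalated disc proteins Xirp1 and Xirp2 fell by 1.03 and 0.79 on the log2 scale. Nppb, the brain natriuretic peptide gene and a usual marker of hypertrophy, was low in vehicle at 0.641, 0.678 and 0.672 CPM. It was near the limit of detection in high glucose at 0.117, 0.0595 and 0.168 CPM (-2.48 ± 0.362, adjusted p = 0.000146).

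Calcium handling and coupling genes changed in the same comparison. Gja1, which encodes connexin 43, the main gap junction protein of working heart muscle and of many other cells, rose from 219, 245 and 206 CPM to 390.0, 381 and 427 CPM (log2 fold change 0.84 ± 0.0737, adjusted p = 1.28e-06). It was the only one called of 6 tested genes of gap junctions and heart ion channels, and 8 others had too few reads. The fast skeletal calcium pump Atp2a1 rose from 7.95 ± 1.21 to 13.7 ± 0.932 CPM and the skeletal calcium release channel Ryr1 from 9.45 ± 0.821 to 16.2 ± 1.60 CPM. The pump of non-muscle cells Atp2a3 fell from 2.50 ± 0.184 to 1.51 ± 0.119 CPM. Of 15 tested calcium handling genes 4 rose (26.7%) and 2 fell (13.3%), against 10.6% and 11% of all genes. Only 1 fall was left without vehicle replicate 1 or high glucose replicate 1.

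Inflammatory genes were measured as an NF-kB and an interferon list, whose difference was not tested. Of 24 tested genes of the NF-kB cytokine and feedback list 14 were higher (58.3%, against 10.6% of all genes). Of the rest 1 was lower and 9 were not called, and the median was 0.42. The cytokine Il6 lay at 23.9, 29.7 and 22.2 CPM in vehicle and at 48.5, 48.5 and 54.9 CPM in high glucose (log2 fold change 1.0 ± 0.0939, adjusted p = 2.45e-06). Its relative Lif varied little within groups, with 16.1, 16.1 and 15.6 CPM against 32.5, 31.8 and 32.5 CPM (1.02 ± 0.0668, adjusted p = 8.86e-08). The groups were apart by far more than their spread for both. Ptgs2, the inducible cyclooxygenase, rose from 78.2 ± 6.20 to 148 ± 19.9 CPM (0.92), and the alarmin Il33 from 80.8 ± 4.69 to 153 ± 10.9 CPM (0.92). Il1a had the largest fold of the list, 1.75, from 0.186 ± 0.0563 CPM, and lost its call in the fit of all 18 libraries (adjusted p = 0.171). The single fall, of the inhibitor gene Tnip1 (-0.24), was lost without vehicle replicate 1 or 3 and without high glucose replicate 2 or 3. Receptors gave more falls than rises. The oncostatin M receptor Osmr fell from 82.8, 87.2 and 77.6 CPM to 45.1, 49.7 and 54.9 CPM (-0.72 ± 0.0754, adjusted p = 6.63e-06). Of 17 tested inflammatory receptors 5 fell (29.4%, against 11% of all genes) and 1 rose (5.88%, against 10.6%). The falls numbered 3 without vehicle replicate 1 or high glucose replicate 1 or 2, and the rise was lost without high glucose replicate 2 or 3.

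Of 28 tested interferon-stimulated genes none rose, 8 fell (28.6%, against 11% of all genes) and 20 were not called, with a median of -0.22. Mx1, an antiviral GTPase, fell from 12, 11.4 and 11.6 CPM to 1.67, 2.20 and 2.13 CPM (log2 fold change -2.54 ± 0.115, adjusted p = 1.25e-09). Oas3, a sensor of double-stranded RNA, fell from 2.48, 1.87 and 2.25 CPM to 1.08, 1.22 and 0.812 CPM (-1.08 ± 0.190, adjusted p = 0.000716). Neither gene overlapped between the groups, a property of 36.8% of all genes tested. Parp14 (-0.73) and Usp18 (-0.84) fell as well, but Usp18 passed narrowly (adjusted p = 0.0499) and lost its call when any 1 library was left out (0.0639 to 0.198). Many classical members were not called, among them Isg15 (-0.07), Ifit1 (-0.42) and Ifit2 (0.00), named here as the usual markers of the response. Of 14 MHC class I and peptide loading genes 5 fell, and 3 fell when any 1 library was left out. The peptide loading factor Tapbp went from 222 ± 11.4 to 171 ± 6.91 CPM (-0.37, adjusted p = 0.00052) and Nlrc5, the transactivator of class I genes, from 8.58 ± 0.412 to 6.32 ± 0.514 CPM (-0.44, adjusted p = 0.00405).

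The Oas3 and Mx1 promoters are set side by side. The exact letters searched for the interferon response motif, GAAANNGAA (or its reverse complement, in capitals), are in the first and not in the second.
Oas3, chr5:120915730-120915929, - strand: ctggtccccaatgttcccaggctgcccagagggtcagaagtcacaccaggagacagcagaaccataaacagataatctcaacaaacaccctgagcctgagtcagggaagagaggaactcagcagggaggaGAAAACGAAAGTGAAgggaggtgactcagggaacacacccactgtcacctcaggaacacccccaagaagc
Mx1, chr16:97264107-97264306, - strand: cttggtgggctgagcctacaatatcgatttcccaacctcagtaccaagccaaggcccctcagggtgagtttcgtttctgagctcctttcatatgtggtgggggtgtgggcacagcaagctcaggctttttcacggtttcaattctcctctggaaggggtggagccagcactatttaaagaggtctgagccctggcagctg
The capitals in Oas3 are 2 overlapping matches. The motif was in 15 of 28 interferon-stimulated promoters (53.6%), against 8.0% of tested promoters, and in 2 of the 8 that fell. For NF-kB the motif GGGANNTTC was in 8 of 24 promoters (33.3%), against 3.8%, and in 4 of the 15 called members.

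Of the leukocyte markers, given because cytokine and interferon genes are also products of macrophages, 1 of 10 tested was called. Cd68, a lysosomal protein, fell from 28.1 ± 2.07 to 16.1 ± 1.17 CPM (log2 fold change -0.80, adjusted p = 4.3e-06, and 0.0866 in the fit of all 18 libraries). The summed level of 12 such markers was 64.7 to 68.8 unscaled CPM in vehicle and 53.7 to 55.7 in high glucose. Their part in the changes of cytokine and interferon genes was not tested.

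**Figure D4:**
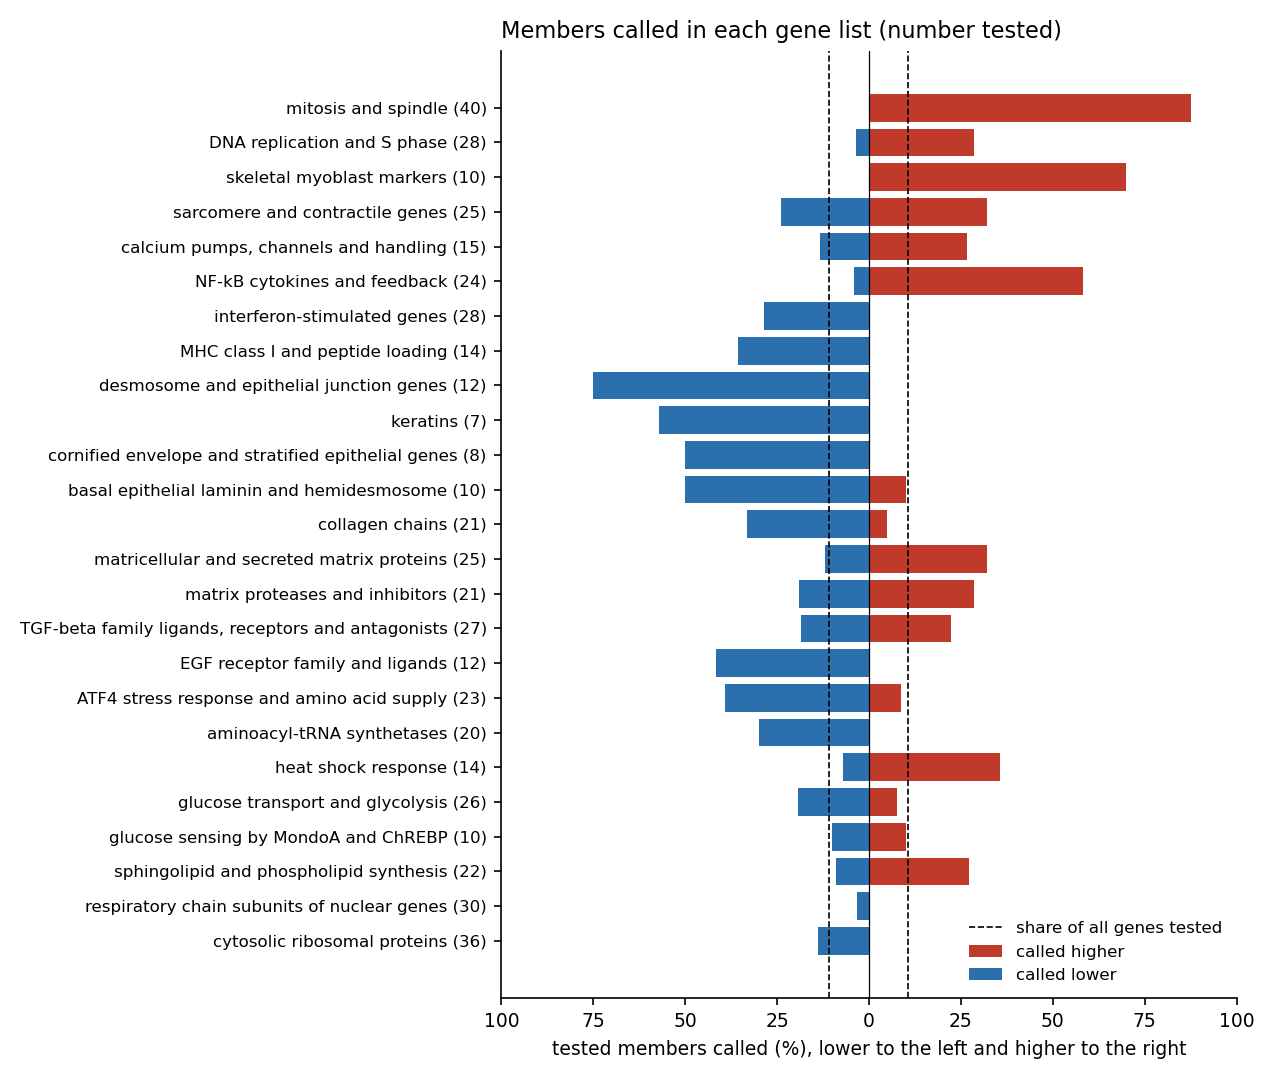
Share of tested members called higher (red, to the right) and lower (blue, to the left) in 25 gene lists, in percent, with the number tested in brackets. Dashed lines mark the share of all genes tested, 10.6% higher and 11% lower. The mitosis list reaches 87.5% on the right and the junction list 75.0% on the left.

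Matrix genes were called in both directions. Spp1, the secreted phosphoprotein osteopontin, rose from 515, 549 and 480.4 CPM to 922, 897 and 1030.0 CPM (log2 fold change 0.88 ± 0.0741, adjusted p = 7.85e-07). Tenascin C (Tnc), a matrix protein of wounds and development, rose from 166, 152 and 169 CPM to 224, 252 and 245 CPM and thrombospondin 1 (Thbs1) from 90.3 ± 3.86 to 122 ± 7.04 CPM. Of 25 tested matricellular proteins 8 rose (32%, against 10.6% of all genes) and 3 fell (12%, against 11%). Only 1 fall was left without vehicle replicate 1. Of 21 collagen chains 1 was higher and 7 were lower (33.3%, against 11% of all genes). Only 2 falls were called without vehicle replicate 1. Col1a2, a chain of type I collagen, was the one that rose, from 1029, 909 and 1043 CPM to 1412, 1584 and 1279 CPM (0.52 ± 0.0835, adjusted p = 0.000348). Col7a1, the anchoring fibril collagen of epithelial basement membrane, fell from 28.2, 28.8 and 27.3 CPM to 13.4, 15.4 and 13.2 CPM (-1.01 ± 0.0774, adjusted p = 3.16e-07). Of 19 collagen folding and crosslinking enzymes 2 rose (10.5%) and 3 fell (15.8%), near the 10.6% and 11% of all genes. Only 1 rise was left without vehicle replicate 1 or high glucose replicate 1 or 2. Serpinh1, the collagen chaperone HSP47, rose from 361, 358 and 347 CPM to 674, 626 and 645 CPM (0.87 ± 0.0621, adjusted p = 1.82e-07), and the crosslinking enzyme Loxl4 fell from 24.0, 22.3 and 21.4 CPM to 5.73, 5.47 and 5.85 CPM (-1.99 ± 0.0849, adjusted p = 8.15e-10).

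Proteases that cut matrix were split as well, with 6 of 21 tested higher (28.6%) and 4 lower (19%), against 10.6% and 11% of all genes. The collagenase Mmp13 (log2 fold change 1.0) and the stromelysin Mmp3 (0.56) rose from vehicle means of 1.21 and 4.91 CPM, while the stromelysin Mmp10 (-1.44), the sheddase Adam8 (-0.77) and the urokinase gene Plau (-0.34) fell. Mmp3, Mmp10 and Mmp13 lie close together on chromosome 9 (7445822 to 7455975, 7502353 to 7510241 and 7272514 to 7283331) and did not move in one direction. The AP-1 motif TGANTCA was in 6 of 21 protease promoters (28.6%), against 5.8% of all.

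Among TGF-beta family genes, which govern fibrosis and growth, 6 of 27 rose (22.2%) and 5 fell (18.5%), against 10.6% and 11% of all genes. The falls numbered 3 without vehicle replicate 1 or 3, or without high glucose replicate 2 or 3. Ligands, antagonists and receptors each went both ways. Inhba, the activin A subunit, rose from 70.8, 70.2 and 63.0 CPM to 110.0, 123 and 138 CPM (log2 fold change 0.86 ± 0.0796, adjusted p = 2.15e-06), and the BMP antagonist Grem1 from 37.3, 40.4 and 29.6 CPM to 59.2, 61.9 and 68.3 CPM (0.82 ± 0.0944, adjusted p = 1.72e-05). The ligand Bmp4 fell from 4.73 ± 0.181 to 3.48 ± 0.320 CPM (-0.44, lost without high glucose replicate 2 with an adjusted p of 0.0584). The antagonist Fstl3 fell by 0.27 on the log2 scale, a call lost without vehicle replicate 1 or 3 or high glucose replicate 3 (adjusted p = 0.0614 to 0.0837). Among receptors, Tgfbr1 rose from 5.13 ± 0.185 to 7.61 ± 0.847 CPM while Tgfbr2 fell from 156 ± 0.795 to 117 ± 6.15 CPM and the activin receptor Acvr1b from 15.5 ± 0.276 to 11 ± 0.474 CPM. Of 12 tested EGF receptor family genes none was called higher and 5 fell (41.7%, against 11% of all genes). The falls numbered 3 (Tgfa, Erbb3 and Areg) without vehicle replicate 1, high glucose replicate 1 or high glucose replicate 2. The ligand Tgfa fell by 1.23 on the log2 scale from 1.14 ± 0.112 CPM, the receptor Erbb3 by 0.52 and the ligand Areg by 0.38. Immediate early factors, which respond to such signals within minutes, gave 4 of 20 higher (20%) and 5 lower (25%). Egr1 fell from 378, 349.7 and 353 CPM to 260.2, 245 and 218 CPM (-0.58 ± 0.0710, adjusted p = 3.09e-05) and Fos rose from 31.7, 32.7 and 30.4 CPM to 46.2, 44.6 and 38.3 CPM (0.45 ± 0.0756, adjusted p = 0.00056). Neither was called in the fit of all 18 libraries (adjusted p = 0.0532 and 0.699), and 2 rises of the list were left without high glucose replicate 1.

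ATF4 is the factor that restores amino acid supply under stress. Of 23 tested genes of its response 9 fell (39.1%, against 11% of all genes), 2 rose and 12 were not called, with a median of -0.12. Atf4 itself went from 266, 269 and 256 CPM to 203, 190.5 and 199.9 CPM (log2 fold change -0.41 ± 0.0596, adjusted p = 0.000131). Of its targets, Trib3, a pseudokinase that feeds back on the response, fell from 24.4, 23.1 and 27.3 CPM to 12.9, 12.4 and 11.6 CPM (-1.02 ± 0.0828, adjusted p = 5.27e-07), and Chac1, which degrades glutathione, from 9.28, 9.19 and 11.8 CPM to 4.53, 5.06 and 4.25 CPM (-1.13 ± 0.117, adjusted p = 6.72e-06). Cth, an enzyme of cysteine synthesis, fell by 0.90 and Atf3 by 0.70 on the log2 scale. The rises were in Shmt2, the mitochondrial serine hydroxymethyltransferase, from 131 ± 13.4 to 219 ± 23.4 CPM (0.74, adjusted p = 1.85e-05), and in Ddit3. Ddit3, which encodes the stress factor CHOP and is a core ATF4 target, went from 75.0, 70.4 and 68.3 CPM to 92.4, 82.5 and 84.8 CPM (0.28 ± 0.0655, adjusted p = 0.00597). Of 20 aminoacyl-tRNA synthetases, several of them ATF4 targets too, 6 fell and none rose, and 3 fell without vehicle replicate 3. Iars, the isoleucine enzyme, had the largest fall, from 81.3 ± 1.91 to 57.6 ± 2.29 CPM (-0.50). The ATF4 composite motif TGATGNAA was in 5 of 23 ATF4 list promoters (21.7%), against 2.6% of all.

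Of 14 chaperones of the heat shock response 5 were higher (35.7%, against 10.6% of all genes) and 1 lower. The rises numbered 3 without vehicle replicate 1 or 3 or without high glucose replicate 2. The fall was lost without vehicle replicate 1 or 3 or high glucose replicate 2 or 3. The constitutive chaperone Hspa8 rose from 1993, 1974 and 1975 CPM to 2561, 2483 and 2334 CPM (log2 fold change 0.31 ± 0.0678, adjusted p = 0.00366). Of 22 genes of the unfolded protein response in the endoplasmic reticulum, 1 rose (4.55%) and 2 fell (9.09%), against 10.6% and 11% of all genes. The rise was lost without vehicle replicate 1 or 3 or high glucose replicate 2 or 3. The falls numbered 1 when any 1 vehicle replicate or high glucose replicate 2 was left out, and 5 in the fit of all 18 libraries or after correction for GC content and length.

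Glucose handling was read from its sensing, transport and breakdown genes. Txnip, the best known glucose-induced gene, measured 414, 389 and 387 CPM in vehicle and 419, 434 and 437 CPM in high glucose. All 3 high glucose values were above all 3 vehicle values, yet the change was 0.12 ± 0.0612 (log2 fold change ± SE) and was not called (adjusted p = 0.199). The same gene lay at 0.785 to 1.07 CPM in the means of the 4 transfected groups, on a scale common to the 18 libraries. Its relative Arrdc4, another MondoA target, measured 8.68 ± 0.230 and 7.65 ± 0.936 CPM (-0.18, adjusted p = 0.219). Of 10 tested genes of glucose sensing 1 was higher and 1 lower (10% each way), near the 10.6% and 11% of all genes. Arrdc3 was higher (0.44). Klf10, a zinc finger factor, was lower, from 51.9 ± 4.68 to 30.9 ± 1.91 CPM (-0.75, adjusted p = 5.45e-06). The transporter gene Slc2a1, which encodes GLUT1, measured 89.9, 86.2 and 88.8 CPM against 83.1, 77.0 and 76.8 CPM (-0.16, adjusted p = 0.0709). Its adjusted p was 0.0446 without high glucose replicate 1. The insulin-responsive transporter gene Slc2a4 had 0 and 1 reads.

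Of 26 tested genes of glucose transport and glycolysis 2 rose and 5 fell. The lactate exporter Slc16a3 rose from 22.3 ± 1.10 to 29.9 ± 1.64 CPM (log2 fold change 0.42, adjusted p = 0.00055). Hexokinase 2 (Hk2) rose by 0.21, a call lost without vehicle replicate 1 or 2 or high glucose replicate 2 (adjusted p = 0.081 to 0.134). The muscle enolase Eno3 fell from 142 ± 8.05 to 109.6 ± 5.26 CPM (-0.37) and the regulatory enzyme Pfkfb4 from 38.3 ± 2.04 to 30.9 ± 0.612 CPM (-0.31). The falls numbered 3 without vehicle replicate 1, high glucose replicate 2 or high glucose replicate 3, and 9 in the fit of all 18 libraries. The rises numbered 1 without vehicle replicate 1 or high glucose replicate 2, 4 in the fit of all 18 libraries and 5 after correction for GC content and length. The share called lower, 19.2%, stands against 11% of all genes.

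Genes of sphingolipid, phospholipid and fatty acid synthesis gave more rises than falls, and cholesterol genes more falls. Of 22 tested genes of sphingolipid and phospholipid synthesis 6 rose (27.3%) and 2 fell (9.09%), against 10.6% and 11% of all genes. Only 1 fall was left without vehicle replicate 3 or high glucose replicate 1 or 2. Samd8, which makes a ceramide phospholipid in the endoplasmic reticulum, stood among the 20 largest rises and went from 27.8, 29.8 and 27.2 CPM to 59.3, 61.0 and 66.3 CPM (log2 fold change 1.14 ± 0.0685, adjusted p = 3.7e-08). Ugcg, the first enzyme of glucosylceramide synthesis, went from 95.0, 108 and 101 CPM to 149, 156 and 172 CPM (0.65 ± 0.0703, adjusted p = 9.65e-06). Every high glucose library lay above every vehicle library for both. Etnk1, ethanolamine kinase, rose by 0.80 and acid ceramidase, Asah1, by 0.53. Of 15 genes of fatty acid synthesis and storage 4 rose (26.7%) and 1 fell (6.67%), or 3 fell without vehicle replicate 2. The rises included the elongase Elovl6 (27.8 ± 1.74 to 39.9 ± 2.35 CPM), the acyltransferase Gpam (28.4 ± 0.701 to 39.2 ± 2.68 CPM) and malic enzyme Me1 (139 ± 2.87 to 179 ± 3.48 CPM). Of 18 genes of fatty acid oxidation 1 rose (5.56%), a call kept only when high glucose replicate 3 was the library left out. Of the same genes 3 fell (16.7%), the largest fall being the mitochondrial thioesterase Acot2 (-0.79 ± 0.111, adjusted p = 0.0001). Of 26 cholesterol genes 1 rose (3.85%) and 4 fell (15.4%), and the falls left were 1 without vehicle replicate 1 and 2 without high glucose replicate 2.

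Insulin and IGF genes were split, with 3 of 20 tested higher (15%) and 5 lower (25%), against 10.6% and 11% of all genes. The falls numbered 3 without vehicle replicate 1 or high glucose replicate 2, and the rises 5 without vehicle replicate 2. H19, a long non-coding RNA beside the imprinted Igf2 gene, had the largest rise in CPM among called genes other than predicted models. It went from 1596, 1343 and 1621 CPM to 2486, 2549 and 2081 CPM (log2 fold change 0.64 ± 0.0909, adjusted p = 0.000113). Igf2 itself was not called (-0.20, adjusted p = 0.589). Igfbp2, which binds IGFs outside cells, rose from 22.1, 24.3 and 24.1 CPM to 41.8, 37.2 and 40.8 CPM (0.77 ± 0.0713, adjusted p = 2.27e-06), and Igfbp6 fell from 1653, 1614 and 1741 CPM to 1276, 1219 and 1116 CPM (-0.47 ± 0.0711, adjusted p = 0.000198). The signalling adaptor Irs2 rose by 0.48, while the kinase Akt2 (-0.30) and the regulatory subunit Pik3r3 (-0.52) fell.

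Antioxidant genes were called in both directions, beside 10.6% of all genes higher and 11% lower. Of 22 NRF2 targets 2 rose (9.09%) and 4 fell (18.2%). The rises numbered 5 in the fit of all 18 libraries, 7 after correction for GC content and length and 1 without vehicle replicate 3. Of 19 oxidases and antioxidant enzymes 2 rose and 2 fell (10.5% each way). In the latter list 1 rise was left without vehicle replicate 1 or 2 or high glucose replicate 1 or 2, and 1 fall without vehicle replicate 1 or high glucose replicate 2. Gsta4, a glutathione transferase that clears lipid aldehydes, stood apart with 467, 431 and 452 CPM against 837, 797 and 739 CPM (log2 fold change 0.81 ± 0.0679, adjusted p = 7.42e-07). Keap1, the NRF2 inhibitor, measured 73.1 ± 5.82 and 64.0 ± 6.55 CPM and was not called (-0.19, adjusted p = 0.1, and 0.0295 in the fit of all 18 libraries). Beta-catenin, Ctnnb1, was not called either (0.09, adjusted p = 0.409).

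Nuclear genes of the respiratory chain and ribosomal protein genes gave few calls, beside 10.6% of all genes higher and 11% lower. Of 30 nuclear genes of the respiratory chain none rose and 1 fell, and of 36 cytosolic ribosomal protein genes 5 fell, with 1 left without vehicle replicate 1 or 3 or high glucose replicate 3, and 2 without high glucose replicate 2. The fall among the respiratory genes was lost without any 1 library other than vehicle replicate 2 or high glucose replicate 3. Of 14 tested transcripts of the mitochondrial genome 4 fell, 1 rose and 9 were not called, with a median of -0.27, and the falls numbered 7 without vehicle replicate 3, 9 without high glucose replicate 3 and 2 without high glucose replicate 1. mt-Nd1, a subunit of complex I, fell from 1126, 1198 and 1089 CPM to 827, 873 and 942 CPM (log2 fold change -0.37 ± 0.0706, adjusted p = 0.00141). mt-Nd6, the complex I subunit encoded on the opposite strand from the others, had the largest rise above 5 CPM among genes other than predicted models, from 99.4, 84.5 and 108 CPM to 148, 332 and 222 CPM (1.27 ± 0.191, adjusted p = 0.000195). Its high glucose libraries differed among themselves by more than the gap between the lowest of them and the vehicle libraries, and without a stated strand setting its reads cannot be told from those of transcripts on the other strand. The fall of mt-Nd4l (-1.59, adjusted p = 0.0269) rested on vehicle replicate 1, which had 9.53 CPM where the other vehicle libraries had 2.22 and 1.84 CPM, and was lost without it (adjusted p = 0.147) or without high glucose replicate 1 (0.0771).

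Some clock genes and nuclear RNAs changed. Of 18 circadian genes 5 rose (27.8%) and 3 fell (16.7%), against 10.6% and 11% of all genes. Only 1 fall was left without vehicle replicate 1. The clock output factor Dbp rose from 64.7, 60.9 and 67.4 CPM to 89.4, 84.7 and 78.8 CPM (log2 fold change 0.39 ± 0.0669, adjusted p = 0.000598), and its relative Hlf by 1.09 from 1.02 ± 0.237 CPM. The abundant nuclear RNA Malat1 fell from 606, 879 and 788 CPM to 451, 485 and 424 CPM (-0.74 ± 0.104, adjusted p = 0.000106), and the paraspeckle RNA Neat1 from 101, 139 and 128 CPM to 79.9, 78.8 and 72.5 CPM (-0.67, adjusted p = 8.95e-05). For both, vehicle replicate 1 was the lowest vehicle library. Neat1 was not called in the fit of all 18 libraries (adjusted p = 0.269). Xist, the RNA that coats the inactive X chromosome, measured 36.5, 50.6 and 47.9 CPM and 19.7, 36.3 and 39.2 CPM, with overlapping groups (-0.50, adjusted p = 0.0556), and its adjusted p ran from 0.000493 without high glucose replicate 3 to 0.143 without high glucose replicate 1.

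Further lists are given by their counts, to be read against 10.6% of all genes called higher and 11% called lower. The splicing factors (14.8% higher, 7.41% lower) and the cell death genes (9.09% and 13.6%) lay near these shares. Of 13 tested Hippo targets 4 rose and 3 fell (2 and 1 without vehicle replicate 1), of 17 Notch and Wnt genes 2 rose and 3 fell, and of 12 genes of hyaluronan, syndecans and glypicans 1 rose and 4 fell (33.3%, against 11% of all genes), the rise being lost without vehicle replicate 2 or 3 or high glucose replicate 2. The Hippo factor Tead4 fell by 0.80 on the log2 scale while its partner Wwtr1, which encodes TAZ, rose by 0.41. The Wnt ligand Wnt7b fell by 1.04 and the Notch ligand Jag2 by 0.63 on the log2 scale. Of 14 natriuretic and hypertrophy genes 1 rose and 5 fell (35.7%), or 3 fell without vehicle replicate 3 and 2 without vehicle replicate 1 or high glucose replicate 2. Of 27 autophagy and lysosome genes 4 rose and 6 fell, or 1 fell without vehicle replicate 1 and 2 without high glucose replicate 2. Of 22 cell death genes 2 rose and 3 fell, with 4 rises without vehicle replicate 2. Of 22 nucleolar genes of ribosome assembly 4 rose and 1 fell, none of which was called without vehicle replicate 1 or 3. Of 27 splicing factors 4 rose and 2 fell, or 1 and 1 without vehicle replicate 1, and of 26 proteasome subunits none fell and 1 rose, or none without vehicle replicate 1 or 3 or high glucose replicate 2 and 3 without vehicle replicate 2.

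The microRNA machinery was measured because the series studies miR-200a-3p. Of 13 tested genes 2 rose and 2 fell (15.4% each way, against 10.6% and 11% of all genes). Only 1 fall was left without vehicle replicate 1 or 3 or high glucose replicate 1. Ago3, a microRNA-binding Argonaute, rose from 16.4, 19.5 and 16.2 CPM to 25.7, 30.5 and 37.2 CPM (log2 fold change 0.84 ± 0.113, adjusted p = 7.35e-05). Its silencing partner Tnrc6b rose by 0.63. Dicer1, which cuts microRNA precursors, fell from 61.4, 60.6 and 58.3 CPM to 43.0, 46.1 and 47.5 CPM (-0.40 ± 0.0636, adjusted p = 0.000319). The microRNA itself is not measured by these mRNA libraries.

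Genes whose 3′ untranslated region (UTR) holds a miR-200a-3p site were set beside genes that lack one, although neither group had received a reagent. The mature sequences are from RefSeq (GRCm38.p6) and the seed, bases 2 to 8, is in capitals. Only miR-141-3p shares it among the 1679 mature mouse miRNAs of the table.
mmu-miR-200a-3p: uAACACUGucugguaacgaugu
mmu-miR-141-3p: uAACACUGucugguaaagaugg
The strongest class of site, called an 8mer, reads CAGTGTTA. Windows of 30 bases are shown for the genes with an 8mer among the 20 largest rises (Cdk19, Dmwd and Kbtbd4) and the 20 largest falls (Atg9b and Mx1), all in the last exon of GRCm39 transcripts, with the 8mer in capitals.
Cdk19: tttatggtaaaCAGTGTTAtggggaagcag
Dmwd: ctctgaaacatCAGTGTTAaccatatccct
Kbtbd4: tcttaccagatCAGTGTTAaaaagaagcac
Atg9b: atggttcaactCAGTGTTAgggaagttgtt
Mx1: tctctcaatgtCAGTGTTAccacaagtgga
The site of Cdk19 lies at chromosome 10, 40357863 to 40357870 (+ strand, exon 13 of 13), that of Dmwd at chromosome 7, 18816478 to 18816485 (+ strand, exon 4 of 4) and that of Kbtbd4 at chromosome 2, 90740501 to 90740508 (+ strand, exon 4 of 4). Those of Atg9b and Mx1 lie at chromosome 5, 24589754 to 24589761 (- strand, exon 14 of 14) and chromosome 16, 97248585 to 97248592 (- strand, exon 9 of 9).

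Cdk19, a kinase of the transcriptional Mediator, rose from 44.2, 43.0 and 38.8 CPM to 77.2, 79.7 and 87.4 CPM (log2 fold change 0.96 ± 0.0710, adjusted p = 2.69e-07). Kbtbd4, an adaptor of ubiquitin ligases, went from 10.0, 11.8 and 11.7 CPM to 25.5, 21.8 and 23.4 CPM (1.07 ± 0.0876), and Dmwd from 13.6, 12.6 and 13 CPM to 25.4, 26.8 and 26.8 CPM (1.01 ± 0.0722). Atg9b, an autophagy protein, fell from 17.5, 20.2 and 18.7 CPM to 5.32, 6.10 and 6.52 CPM (-1.65 ± 0.0954), so single genes with a site went both ways.

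Over all genes, sites went with rises. Of 659 tested genes with an 8mer 32.6% were called higher and 5.31% lower, and of 9527 without a site 8.23% were higher and 12.7% lower. Genes with an 8mer also have longer 3′ UTRs and lower GC content, and GC content alone moved with the calls, so the shares were taken within classes. Over 3 equal classes of 3′ UTR length, 37.8% of the 37 genes with an 8mer in the shortest class were higher, against 7.95% without a site, in the middle class 37.1% against 8.4% and in the longest 30.7% against 8.44%. From the lowest to the highest class of GC content the shares called higher were 34%, 34.5%, 34.3%, 22.2% and 31.4% with an 8mer, and 13.7%, 11.3%, 7.34%, 5.94% and 4.75% without a site. The highest class held 35 genes with an 8mer. After correction for GC content and length 36.3% of genes with an 8mer and 13.5% of those without a site were higher. Without vehicle replicate 1 the shares were 24.1% and 5.01%. These shares are descriptions over genes, which are not replicates, and no test was made of them.

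**Figure D5:**
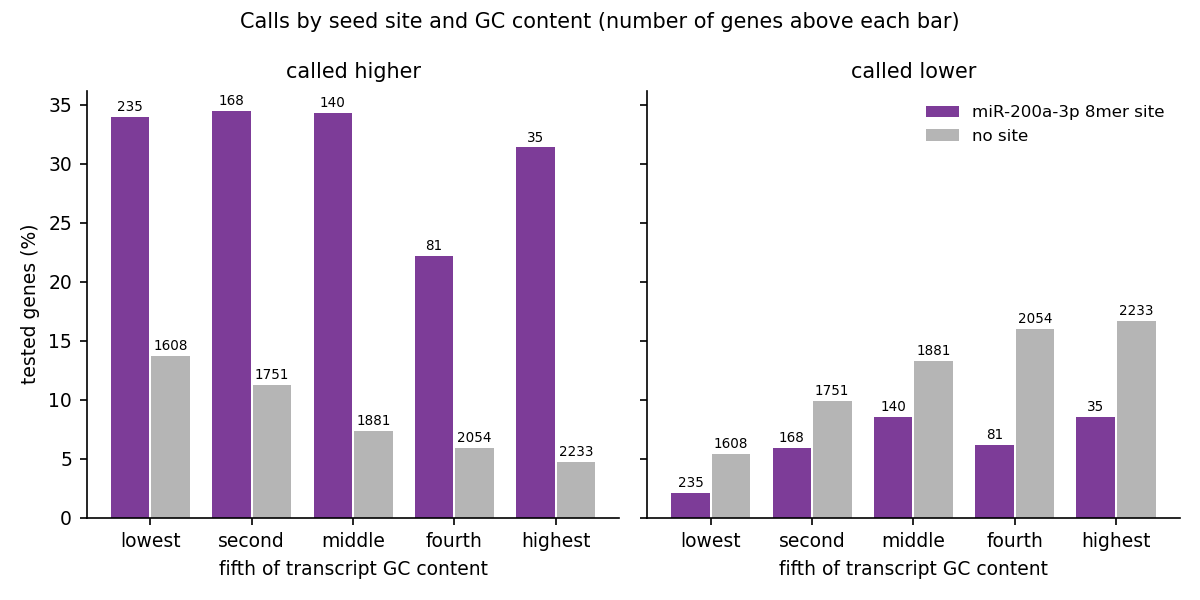
Share of tested genes called higher (left panel) and lower (right panel), in percent, over the 5 classes of transcript GC content from lowest to highest, for genes with a miR-200a-3p 8mer site (purple) and with no site (grey). The number of genes stands above each bar. The purple bars of the left panel reach 22.2% to 34.5% and exceed the grey bars, 4.75% to 13.7%, in every class.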

How the data were processed

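RNA was measured in cells labelled HL-1, and 6 untransfected libraries of 18 were used here (3 vehicle, 3 high glucose). Libraries made with a stranded mRNA kit were read in pairs of 150 nt, per the labels' protocols. Reads with more than 2 N bases or under 16 nt were dropped, FASTX-Toolkit 0.0.13 trimmed them, and HISAT2 aligned them to GRCm39 with 4 mismatches allowed, per the labels' protocols. The authors deposited counts of uniquely mapped reads per gene, and FPKM values (fragments per length and depth), per the labels' protocols. DESeq2 is named in the submitters' processing notes without a role. Unique mapping lowers genes with near-identical copies. The strand setting was not given in the sources used here, so overlapping antisense genes may share reads.

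Counts were tested with edgeR 4.0.16 (R 4.3.3) on the 6 libraries with 1 term for the group, TMM scaling (CPM here are on that scale), and filterByExpr (minimum count 10, minimum total 15), which left 13745 of 29112 listed genes and 4 residual degrees of freedom. Totals of 34242930 to 36125927 reads gave a common biological coefficient of variation of 6.42%. Exact permutation of 3 against 3 cannot go below p = 0.1, so single genes rest on the fit across all genes. Adjusted p-values are Benjamini-Hochberg values over all tested genes. Promoters, GC content and 3′ UTRs came from GENCODE M39 on GRCm39, to which 28849 listed genes matched, and miRNAs from RefSeq. The scripts were tested on simulated data.

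Alternatives were all 18 libraries in 1 fit, DESeq2 1.42.0, other size factors, other filters, GC and length correction, a replicate block, limma 3.58.1 on log2(FPKM + 1) or log2(FPKM + 0.1), and each library left out. The genes named are the 20 largest rises and 20 largest falls among called genes that reach 5 CPM in one group mean, do not overlap between groups and are no predicted gene model. They also include, among called genes that are no predicted gene model, the 8 largest rises and 8 largest falls in CPM. Further named are up to 4 called members each way of each list, Txnip, Nppa, Nppb, Myh6, Myh7, Slc2a1, Zeb2, Keap1, Ctnnb1 and Xist, and promoters of called list members. Genes named outside this rule were chosen after their values were seen. The gene lists and members were chosen with earlier results of these data known, so no list is independent evidence of its direction.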

Additional observations from a re-analysis of the deposited data

How the results depend on the processing

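The number of called genes, 2964, ranged from 1970 to 3024 with 1 library left out (961 to 1508 higher and 1009 to 1516 lower), the lowest being without vehicle replicate 1. Changes of at least 2-fold ranged from 40 to 55 genes higher and from 145 to 167 lower in the same way. The count of genes higher by at least 2-fold was 19 under the stricter filter of 50 reads in 3 libraries, 3 with limma on log2(FPKM + 1) and 15 on log2(FPKM + 0.1), and of genes lower by at least 2-fold 74, 18 and 81. A stricter filter tests fewer low genes and a pseudocount shrinks their folds by construction. For the count without vehicle replicate 1 the cause was not tested. The share of calls that were higher was 49.1%, and 40.9% to 54.1% over the alternatives. Of 309 named genes tested 302 were called, 193 kept the call in all 18 alternatives, 109 lost it in at least 1, and 0 reversed. Deviations of same-numbered libraries from their group means correlated at -0.119, -0.509 and -0.634 over 9677 genes. Same-numbered libraries were thus not alike in their deviations. Deviations from a mean of 3 libraries are tied to each other, so they cannot show whether same-numbered libraries were grown or processed together. With the replicate block 1983 genes were called (970 higher, 1013 lower), and with the block and GC and length correction 3133 (1664 and 1469). A gene with 0 reads in a library may have a level of up to 0.083 to 0.0876 CPM there, by counting error alone.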
